A study of Mus musculus with 31 samples.

Results

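The insulin, glucagon and IGF axis was followed through 10 genes in mouse liver: Insr, Gcgr, Irs1, Irs2, Foxo1, Ppargc1a, Igf1, Igfbp1, Igfbp2 and Trib3. Every array probe that carries 1 of these gene names was taken, which gave 15 probes among 36059 probes that passed the filter on dim spots, or 10 genes among 23968 gene names. All 15 passed that filter, all 465 spot values were well above background and 0 were saturated. Insr, Foxo1 and Ppargc1a each had 2 probes, Igf1 had 3, and the other 6 genes had 1.

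The data are one-color Agilent arrays of liver RNA, each from a different mouse, and cover 31 males of the C57BL6/J strain. There were 8 ChREBPβ-deficient mice (ChREBPbeta_KO), in which gene editing had removed the exon of Mlxipl that is specific to the β isoform, 8 of their WT littermates (ChREBPbeta_WT), 7 total ChREBP-KO mice (ChREBPtotal_KO), which lack both the α and the β isoform, and 8 of their WT littermates (ChREBPtotal_WT). A further total ChREBP-KO mouse was not analysed here. All mice ate regular chow, were fasted for 24 h and were then refed for 18 h with food and 20% glucose in the drinking water, so no fasted or untreated liver was measured. Both deletions were present in all tissues, and the ages of the mice were not given in the sources used here.

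Insulin binds its receptor on hepatocytes after a meal, and receptor substrates pass the signal to kinases that keep the transcription factor FOXO1 out of the nucleus. Glucagon acts through its own receptor and cAMP in the fasted state, and the coactivator PGC-1α then joins FOXO1 at genes of glucose production. The liver is also the main source of circulating IGF1, and of binding proteins that hold it in the blood. ChREBP is a transcription factor activated by glucose metabolites, and it works beside insulin in the refed liver.

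Values are log2 signals after quantile normalization, with 1 unit standing for a doubling of signal. A probe was called where limma's test gave an adjusted p below 0.05 after Benjamini-Hochberg adjustment over all 36059 probes. Probes bind with different strength, so levels were compared between mice and never between probes. The number of mice limits the precision, and a p-value here sets a difference between group means against the spread between mice within groups. In whole liver, fewer cells of a type and less RNA per cell cannot be told apart.

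Mlxipl, the gene that encodes ChREBP, was the targeted gene. Its probe read 14.40 to 14.84 in ChREBPβ-deficient mice against 14.88 to 15.33 in their WT littermates, and 13.89 to 14.30 in total ChREBP-KO mice against 15.14 to 15.48 in theirs, so neither pair of groups overlapped. Where this probe lies relative to the deleted parts was not checked. Hepatocyte markers had a nearly level summed signal, between 20.66 and 20.78 on the log2 scale in all groups. Such a sum mostly follows its brightest probes. Of the 7 hepatocyte genes with a probe, 2 were called higher and 0 lower in total ChREBP-KO mice, beside 17.3% and 17.1% of all gene names. Exocrine pancreas markers (6 of 11 named had a probe that passed) reached 15.09 in WT mice of the total line and at most 12.32 elsewhere, with Clps, Ctrb1 and Cel high together in 3 mice of that group (replicates 2, 7 and 8). The summed signal of adipocyte markers (6 of 7 with a probe) ran from 11.03 to 14.08 over all mice. It reached 14.08 in total ChREBP-KO mice and 13.15 in their WT littermates, and 14.03 in ChREBPβ-deficient mice and 12.85 in theirs. Retn and Cfd were high together in 3 mice, which were total ChREBP-KO replicate 6 and WT replicates 2 and 5 of the same line. These 3 are the arrays called high in adipocyte markers below. Cfd without Retn was also high in ChREBPβ-deficient mice, up to 12.60, and those arrays were not among the 3. The summed signal of hepatic stellate cell markers ran from 14.40 to 15.47 in total ChREBP-KO mice and from 14.07 to 14.55 in their WT littermates. Cholangiocyte markers reached 13.58 in total ChREBP-KO mice and 12.55 in their WT littermates. Red blood cell markers (3 genes with a probe that passed) did not overlap between the WT littermates, at 17.21 to 17.69 in the total line and 15.87 to 16.92 in the β line. Their part in the differences between the WT littermates was not tested. Calls below that were lost without the arrays high in pancreatic or adipocyte markers are given both ways. Calls gained without them are counted in the closing section. The stellate cell, cholangiocyte and red blood cell markers were not used to leave out arrays.

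The β deletion gave 0 calls among the 15 probes, beside 0.00277% of all probes. The smallest adjusted p of a member was 0.97. In total ChREBP-KO mice, 2 of 15 probes were called, beside 29.1% of all probes: Igf1 was higher (14.5% of all probes were) and the glucagon receptor gene Gcgr was lower (14.6% were). The share of members was thus below that of all probes. Between the 2 groups of WT littermates, 4 of 15 probes of 3 genes differed, beside 17.0% of all probes: Igfbp1 was higher in the total line (8.12% were), and Irs2 and both probes of Ppargc1a were lower (8.92% were). The plot of all differences shows these 6 calls and, beside them, the wide intervals of Igfbp1 and of 2 Igf1 probes.

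**Figure D1:**
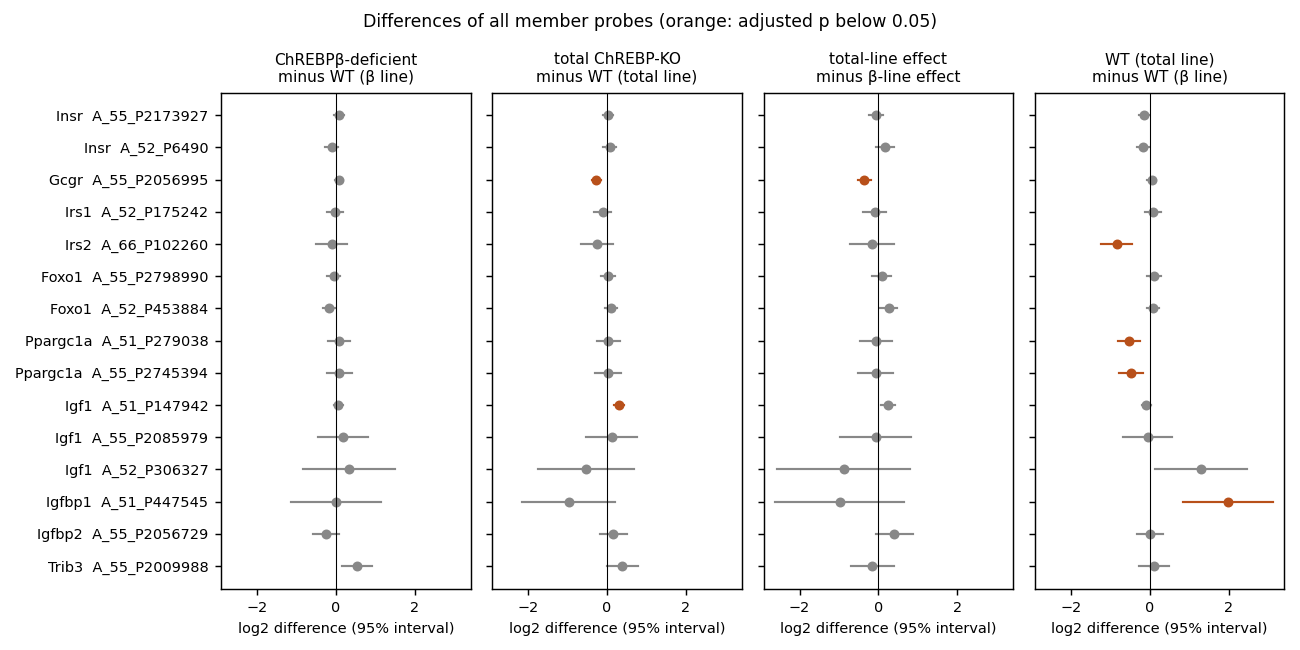
Log2 difference and its 95% interval (x axis) for each of the 15 member probes (rows) in 4 comparisons (panels), with probes called at an adjusted p below 0.05 in orange. No probe is orange in the ChREBPβ panel, Igf1 and Gcgr are in the total ChREBP-KO panel, Gcgr is in the panel of the difference between the effects, and Irs2, both Ppargc1a probes and Igfbp1 are in the panel of WT littermates.

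Gcgr, which encodes the glucagon receptor, was lower in total ChREBP-KO mice. Its probe (A_55_P2056995, mm9 chromosome 11, 120400221 to 120400280, plus strand) read 15.16, 15.28, 15.15, 15.11, 15.32, 15.26, 15.35 and 15.40 in the WT littermates of the total line. In total ChREBP-KO mice it read 14.81, 15.08, 14.78, 15.05, 15.03, 15.15 and 14.93. Of the 7 total ChREBP-KO mice, 6 lay below every WT littermate, and 7 of the 8 WT littermates lay above every total ChREBP-KO mouse. The log2 difference was -0.28 (SE 0.06, 95% interval -0.39 to -0.16), which is 1.21-fold lower, with a limma adjusted p of 0.000358 and an exact two-sided permutation p of 0.000777. Within the arrays of each scan date the difference was -0.25 and -0.29. Gcgr was at -0.23 without the 3 arrays high in pancreatic markers and at -0.27 without the 3 high in adipocyte markers, and was called in both. The part of the stellate cell markers in it was not tested.

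In the β line Gcgr was not called. ChREBPβ-deficient mice ran from 15.17 to 15.41 with a median of 15.28, and their WT littermates from 15.05 to 15.34 with a median of 15.22, so the groups overlapped. They differed by 0.08 on the log2 scale (SE 0.05, 95% interval -0.03 to 0.19). The effect in the total line minus the effect in the β line was -0.36 on the log2 scale (SE 0.08, 95% interval -0.52 to -0.20, limma adjusted p = 0.00175), and the 2 effects rest on separate controls. Gcgr was the only 1 of 15 member probes called in that test, beside 15.1% of all probes (8.08% lower and 7.02% higher). Group means in order were 15.29 in ChREBPβ-deficient mice, 15.26 and 15.21 in the WT littermates of the total and the β line, and 14.98 in total ChREBP-KO mice. Neither the WT littermates of the 2 lines nor the 2 groups of the β line differed beyond their spread. The gene names whose probes followed Gcgr most closely over the 31 arrays, by Pearson's r, were Pikfyve (0.88), Mycn (0.85) and Arih1 (0.85).

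**Figure D2:**
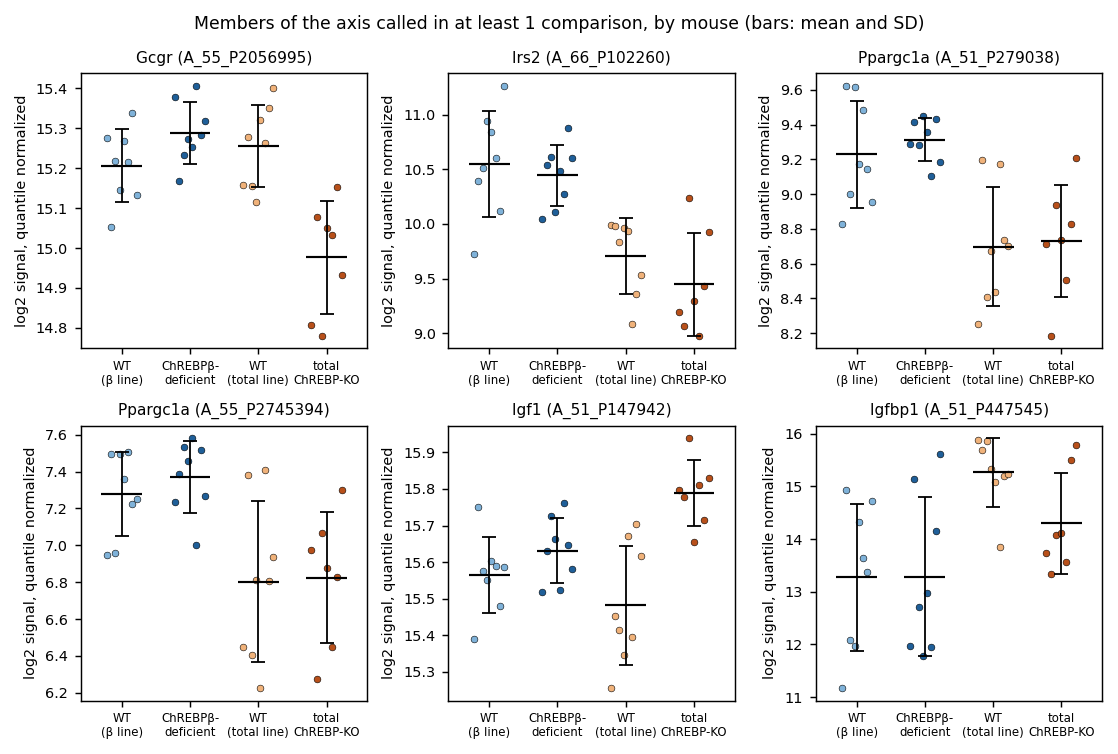
Log2 signal (y axis, own scale in each panel) of the 6 member probes called in at least 1 comparison, with 1 point per mouse in the 4 groups (x axis) and bars for the mean and SD. Total ChREBP-KO mice have the lowest group mean for Gcgr and the highest for Igf1, and single mice overlap with those of other groups. Irs2 and Ppargc1a have a lower mean, and Igfbp1 a higher mean, in the WT mice of the total line than in those of the β line.

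The insulin receptor gave no call. Its probe A_55_P2173927 (mm9 chromosome 8, 3155472 to 3155531) read 7.85 to 8.26 in ChREBPβ-deficient mice, 7.77 to 8.13 in their WT littermates, 7.69 to 8.02 in total ChREBP-KO mice and 7.69 to 7.90 in theirs. On the log2 scale the groups differed by 0.08 (95% interval -0.04 to 0.20) for the β deletion and 0.03 (-0.10 to 0.16) for the total deletion. The second probe, A_52_P6490, gave -0.11 (-0.26 to 0.05) and 0.07 (-0.10 to 0.23). All 4 intervals include 0. Between the WT littermates the 2 Insr probes were at -0.14 and -0.17 in the total line against the β line, and neither passed (limma adjusted p = 0.106 and 0.119).

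IRS1 and IRS2 are docking proteins that carry the signal from the receptor to phosphoinositide 3-kinase, and Irs2 is a known FOXO1 target in fasted liver. Irs1 (A_52_P175242) lay between 10.17 and 10.97 in all 31 mice. Its log2 difference was -0.02 (95% interval -0.22 to 0.19) for the β deletion, -0.11 (-0.32 to 0.11) for the total deletion and 0.08 (-0.13 to 0.29) between the WT littermates. All 4 groups overlapped.

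Irs2 differed between the lines. Its probe (A_66_P102260, mm9 chromosome 8, 11004490 to 11004549, minus strand) read 9.72, 10.39, 10.51, 10.94, 10.84, 10.60, 10.12 and 11.26 in WT littermates of the β line. In WT littermates of the total line it read 9.99, 9.98, 9.83, 9.96, 9.93, 9.08, 9.36 and 9.53. The scanner had not found the outline of 4 Irs2 spots, among them WT replicate 6 of the β line (10.60) and of the total line (9.08), and these values were kept. The groups overlapped through a single β-line mouse at 9.72, and the other 7 lay above all WT mice of the total line. The fitted log2 difference was -0.84 (SE 0.19, 95% interval -1.23 to -0.45), which is 1.79-fold lower, with a limma adjusted p of 0.00257 and an exact permutation p of 0.00186. It was -0.73 and -0.95 within the 2 scan dates. With the slide as a fixed block, a fit that uses only differences within slides, it was -0.67 and was no longer called (limma adjusted p = 0.103).

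ChREBPβ-deficient mice ran from 10.04 to 10.88, and the log2 difference from their WT littermates was -0.11 (95% interval -0.49 to 0.28). Total ChREBP-KO mice ran from 8.98 to 10.24, with a difference of -0.26 (-0.66 to 0.14, limma adjusted p = 0.350). Group means in order were 10.55 and 10.44 in the WT and ChREBPβ-deficient mice of the β line and 9.71 and 9.45 in the WT and total ChREBP-KO mice of the total line, and neighbours within a line did not differ beyond their spread. The closest gene names over 31 arrays were Papss1 (r = 0.83), Sec61g (0.82) and Mvd (0.81). The r of deviations from group means was 0.67, 0.46 and 0.50 in that order.

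Ppargc1a encodes PGC-1α, a coactivator that rises with fasting and glucagon. Its 2 probes lie 491 bases apart on mm9 chromosome 5 and were called in the same comparison. Probe A_51_P279038 read from 8.83 to 9.62 with a median of 9.16 in WT littermates of the β line, and 8.25, 9.20, 8.41, 8.67, 8.43, 9.17, 8.74 and 8.70 in those of the total line. Of the latter, 6 of 8 lay below every WT mouse of the β line. The log2 difference was -0.53 (SE 0.14, 95% interval -0.81 to -0.25, limma adjusted p = 0.00739), or 1.45-fold lower. The second probe, A_55_P2745394, gave -0.48 (SE 0.15, limma adjusted p = 0.0285), again with 6 of 8 mice below all of the β line. Neither probe was called by an exact Mann-Whitney test adjusted over all probes (adjusted p = 0.105 for both). The second was also lost in a fit of these 2 groups alone (limma adjusted p = 0.0545), and without any of 6 single mice (β-line WT replicates 2, 4 and 6 and total-line WT replicates 1, 3 and 5), where its adjusted p reached 0.0674.

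Neither deletion gave a call for Ppargc1a. The log2 differences of the 2 probes were 0.09 and 0.09 for the β deletion and 0.03 and 0.02 for the total deletion, with intervals no wider than -0.30 to 0.40. ChREBPβ-deficient mice varied little on the first probe, from 9.11 to 9.45 (SD 0.12, n = 8), while their WT littermates had an SD of 0.31 (n = 8). Nipsnap1 was the gene name closest to both probes over 31 arrays (r = 0.82 and 0.86).

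The sequences of the Irs2 probe and of the second Ppargc1a probe are shown, and which transcript each reads was not checked here. The Ppargc1a probe ends on a stop codon, in capitals, and has an open frame before it.
Irs2 A_66_P102260: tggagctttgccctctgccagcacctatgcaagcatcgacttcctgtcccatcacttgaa
Ppargc1a A_55_P2745394: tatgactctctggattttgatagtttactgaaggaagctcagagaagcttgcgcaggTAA

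The 250 bases before the start of 4 genes are shown with motif matches in capitals, since Irs2, Ppargc1a and Igfbp1 were the members that differed between the WT littermates and Irs1, the paralog of Irs2, did not. Sequences are RefSeq's for GRCm38.p6, and 9 of the 10 members had a window there. The motifs, searched on both strands, were the E-box CACGTG, the insulin response core TGTTTTG, the forkhead motif TGTTTAC, the cAMP response half-site TGACG and the D-box TTATGTAA. The carbohydrate response element, searched only as 2 perfect E-boxes with 5 bases between them, was in 0 of all windows.
Irs1 (chr1:82291440-82291689, minus strand): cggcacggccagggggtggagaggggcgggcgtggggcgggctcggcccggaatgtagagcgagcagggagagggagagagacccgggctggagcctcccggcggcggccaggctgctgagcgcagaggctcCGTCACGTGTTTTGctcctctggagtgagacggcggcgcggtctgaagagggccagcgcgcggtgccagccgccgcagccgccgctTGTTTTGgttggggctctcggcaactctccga
Irs2 (chr8:11008930-11009179, minus strand): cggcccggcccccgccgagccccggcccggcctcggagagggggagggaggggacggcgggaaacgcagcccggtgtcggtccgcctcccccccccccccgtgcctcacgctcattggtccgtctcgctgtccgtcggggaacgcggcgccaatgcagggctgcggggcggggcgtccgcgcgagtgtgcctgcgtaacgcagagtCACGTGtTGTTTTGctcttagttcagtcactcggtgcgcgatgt
Ppargc1a (chr5:51567726-51567975, minus strand): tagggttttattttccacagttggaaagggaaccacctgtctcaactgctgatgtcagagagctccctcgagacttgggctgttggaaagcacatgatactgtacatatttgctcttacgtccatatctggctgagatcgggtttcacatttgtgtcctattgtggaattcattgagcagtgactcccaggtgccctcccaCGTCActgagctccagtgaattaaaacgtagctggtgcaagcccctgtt
Igfbp1 (chr11:7197537-7197786, plus strand): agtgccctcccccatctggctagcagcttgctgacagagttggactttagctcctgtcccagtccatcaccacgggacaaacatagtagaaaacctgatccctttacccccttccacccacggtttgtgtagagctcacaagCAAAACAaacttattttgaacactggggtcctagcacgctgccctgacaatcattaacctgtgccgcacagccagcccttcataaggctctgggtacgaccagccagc
Irs1 and Irs2 both held the E-box with the insulin response core beside it. In Irs1 the 2 overlap, from 115 to 105 bases before the start, and a half-site overlaps the E-box there. In Irs2 the E-box ends 39 bases and the core begins 37 bases before the start. Irs1 held a further core 32 to 26 bases before the start. Igfbp1 held the core on the opposite strand, 108 to 102 bases before the start, and Ppargc1a held a half-site 49 to 45 bases before it. Of the windows not printed, Igfbp2 held an E-box and Trib3 held 2 half-sites, while those of Igf1, Gcgr and Foxo1 held no match. Among all 32851 windows of this length, 6.02% held the E-box, 5.56% the core and 17.8% the half-site. The forkhead motif TGTTTAC was in 3.17% of windows and the D-box TTATGTAA in 0.819%, and neither was in a member's window. Only these exact letters were searched, so other forms of such sites may be present. A match is a description of letters and no evidence of binding.

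Foxo1 encodes the factor through which insulin restrains glucose production. Its probe A_55_P2798990 lay between 10.81 and 11.48 in all mice and differed by -0.06 (95% interval -0.22 to 0.11) for the β deletion and 0.02 (-0.15 to 0.20) for the total deletion. On the second probe, A_52_P453884, ChREBPβ-deficient mice were tightly grouped from 10.11 to 10.26 (SD 0.05, n = 8), and 6 of their 8 WT littermates lay above them, up to 10.58 (SD 0.18). The difference on the log2 scale was -0.16 (SE 0.07, exact permutation p = 0.0263) and did not pass over all probes (limma adjusted p = 0.989). In total ChREBP-KO mice it was 0.10 (SE 0.08, limma adjusted p = 0.344), and the 2 effects differed by 0.27 (SE 0.10, limma adjusted p = 0.0855). That difference was called in 3 of 14 other settings, among them without the 3 arrays with high pancreatic markers (limma adjusted p = 0.0352).

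Igf1 was read by 3 probes that disagreed. Probe A_51_P147942, designed on the mRNA NM_010512, varied least within groups, with an SD of 0.12. Total ChREBP-KO mice read 15.80, 15.78, 15.94, 15.66, 15.81, 15.72 and 15.83, and their WT littermates 15.26, 15.45, 15.42, 15.35, 15.67, 15.40, 15.70 and 15.62. Of the 7 total ChREBP-KO mice, 6 lay above every WT littermate, and 6 of the 8 WT littermates lay below every total ChREBP-KO mouse. This is a log2 difference of 0.31 (SE 0.06, 95% interval 0.18 to 0.43), or 1.24-fold, with a limma adjusted p of 0.00031 and an exact permutation p of 0.00155. It was 0.42 within the arrays of one scan date and 0.19 within those of the other. Without the arrays high in pancreatic or adipocyte markers Igf1 was at 0.37 and 0.33 on this probe, and was called in both.

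ChREBPβ-deficient mice lay from 15.52 to 15.76 on this probe, overlapping their WT littermates at 15.39 to 15.75, with a difference of 0.07 (95% interval -0.06 to 0.19). The effect in the total line minus that in the β line was 0.24 (SE 0.09), just outside the threshold (limma adjusted p = 0.0555). It was called in 8 of 14 other settings, with adjusted p-values from 0.00961 to 0.376. Group means in order were 15.79 in total ChREBP-KO mice, 15.63 and 15.57 in ChREBPβ-deficient mice and their WT littermates, and 15.48 in the WT littermates of the total line. Ttpa, which encodes a vitamin E transfer protein made in liver, was closest over 31 arrays (r = 0.85).

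The other Igf1 probes varied from mouse to mouse inside every group. Probe A_55_P2085979 (NM_184052) spanned 10.04 to 12.26, with a within-group SD of 0.65 that is higher than for 98.8% of all probes. Probe A_52_P306327, designed on the cDNA AK050118, spanned 6.92 to 12.15, with a within-group SD of 1.22 at the 99.8th percentile. Their starts lie 53074 and 0 bases into the stretch of mm9 chromosome 10 that the 3 probes cover, against 68134 for A_51_P147942. For the total deletion they differed by 0.11 (95% interval -0.53 to 0.76) and -0.54 (-1.76 to 0.67). Both intervals include 0.31, the difference of the first probe, and 0. Over 31 arrays the first probe correlated with them at r = 0.10 and 0.12, and they correlated with each other at 0.27.

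**Figure D3:**
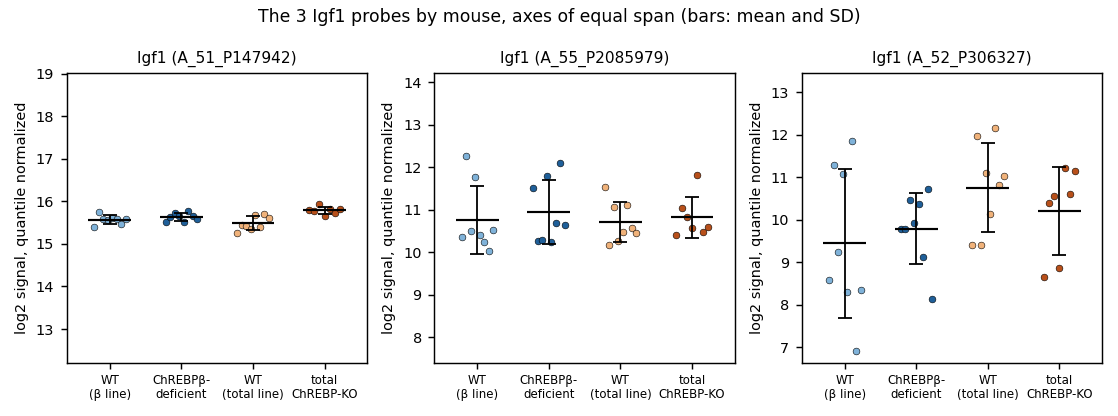
Log2 signal (y axis, the same span in each panel) of the 3 Igf1 probes with 1 point per mouse in the 4 groups (x axis) and bars for the mean and SD. Mice differ by under 0.7 units on A_51_P147942 and by more than 5 on A_52_P306327.

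The 2 variable probes had different closest gene names. Cish encodes a feedback inhibitor of the JAK-STAT pathway that growth hormone induces. Probe A_55_P2085979 was closest to F830014O18Rik (r = 0.83 over 31 arrays), with Cish next (r = 0.81). The likeness to Cish held for deviations from group means within the β line (r = 0.88, 16 arrays) and within the total line (r = 0.79, 15 arrays). The same probe ran against Bcl6, a repressor of growth hormone targets in liver (r of deviations -0.72). The closest gene name to A_52_P306327 was Wdr45b (r = 0.84). Socs3, of the same family as Cish, had r of deviations of 0.77 and 0.68 with it within the 2 lines and was not among its 3 closest names. Each pair was measured on the same arrays, and the correlations are descriptions across mice. Bcl6 and Socs3 were chosen after their values were seen, so no shared theme is read from them.

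**Figure D4:**
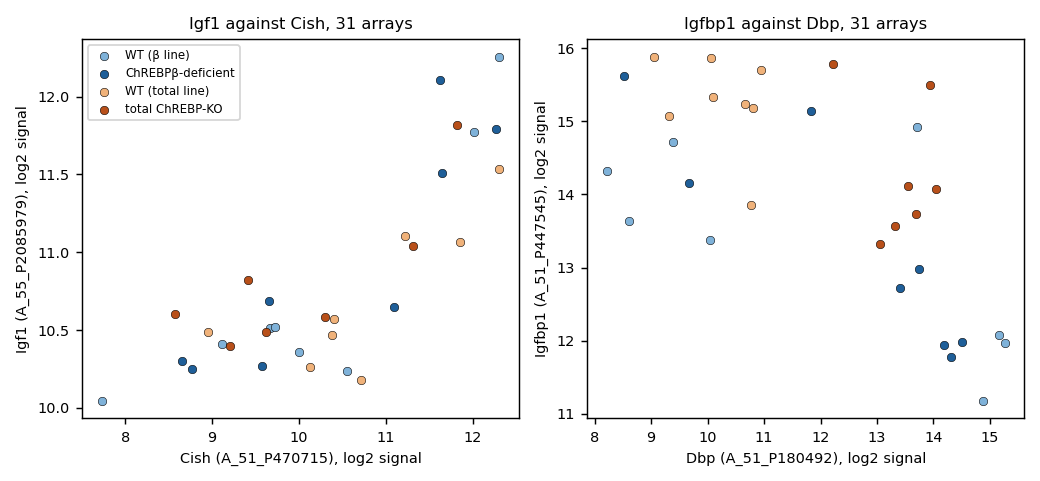
Left, Igf1 probe A_55_P2085979 (y axis) against Cish (x axis), and right, Igfbp1 (y axis) against Dbp (x axis), all as log2 signal with 1 point per mouse coloured by group. Mice with Igf1 above 11.5 on this probe have high Cish in every group, and the 6 lowest Igfbp1 signals are in mice of the β line with Dbp above 14.

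Igfbp1 (A_51_P447545, mm9 chromosome 11, 7102442 to 7102501, plus strand) encodes an IGF-binding protein that insulin shuts off and fasting raises. It had the widest spread of the set but for 1 Igf1 probe, from 11.17 to 15.88, or a within-group SD of 1.18 at the 99.8th percentile of all probes. In WT littermates of the β line it read 11.17, 14.92, 12.08, 11.96, 14.32, 13.63, 13.38 and 14.72. In those of the total line it read 15.88, 15.70, 15.86, 15.33, 15.07, 13.85, 15.19 and 15.23. All WT mice of the total line but 1 lay above all of the β line. The log2 difference was 1.99 (SE 0.56, 95% interval 0.85 to 3.13), or 3.97-fold, with a limma adjusted p of 0.0131 and an exact permutation p of 0.00233. It was 2.37 and 1.61 within the 2 scan dates.

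The call for Igfbp1 was lost in 2 settings. Its log2 difference between the WT littermates was 1.92 without the 3 WT mice with high pancreatic markers (limma adjusted p = 0.0567) and 1.90 with the slide as a fixed block (limma adjusted p = 0.132). The sources used here do not say how the 2 lines differ in litter or housing, and the line and any such difference cannot be told apart.

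Neither deletion gave a call for Igfbp1. ChREBPβ-deficient mice ran from 11.78 to 15.62 with a median of 12.85, against 11.17 to 14.92 with a median of 13.51 in their WT littermates, and the log2 difference was 0.02 with an interval from -1.12 to 1.15. Total ChREBP-KO mice read 13.73, 13.33, 14.07, 14.11, 13.57, 15.49 and 15.78, and 3 of 7 lay below every WT littermate. The fitted log2 difference was -0.97 (SE 0.58, 95% interval -2.14 to 0.21, limma adjusted p = 0.225, exact permutation p = 0.0432). It was -1.88 within the arrays of one scan date and 0.11 within those of the other, so it did not hold within both. Group means in order were 15.26 and 14.30 in the WT and total ChREBP-KO mice of the total line and 13.29 and 13.27 in the ChREBPβ-deficient and WT mice of the β line.

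Igfbp1 moved with clock genes inside the β line. Dbp, an output gene of the circadian clock, ranged from 8.22 to 15.26 in WT mice of that line and from 8.53 to 14.51 in ChREBPβ-deficient mice, against 9.05 to 10.95 and 12.23 to 14.04 in the WT and total ChREBP-KO mice of the total line. The 3 WT mice of the β line with the lowest Igfbp1, at 11.17, 11.96 and 12.08, had the 3 highest Dbp values of their group, at 14.89, 15.26 and 15.16. The WT mouse with the highest Igfbp1 of that group, at 14.92, had Dbp at 13.70. Deviations from group means correlated at -0.75 with Dbp and 0.83 with Arntl, which encodes the clock activator BMAL1, in the β line (16 arrays). In the total line they were at -0.31 and 0.32 (15 arrays). Nfil3, a repressor that competes with DBP at D-boxes, followed Igfbp1 in both lines (r of deviations 0.85 and 0.80). The part of the clock genes in the Igfbp1 differences was not tested. The closest gene names over 31 arrays were Ap2a2 (r = 0.85), Chka (0.84) and Irf2bp2 (0.83).

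Igfbp2 encodes a binding protein made by hepatocytes. It lay between 14.09 and 15.37 in all mice and was not called in any comparison. The log2 difference was -0.24 (95% interval -0.58 to 0.09) for the β deletion, with 3 of 8 ChREBPβ-deficient mice below all WT littermates, and 0.16 (-0.18 to 0.51) for the total deletion. The WT littermates of the 2 lines had the same mean, 14.78. The probe listed under the gene name Tango6 followed it at r = 0.96 over 31 arrays, the highest of any member, against 0.72 for the next name. Whether both probes read the same RNA was not tested.

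Trib3 encodes a pseudokinase that binds the insulin-signalling kinase AKT and is induced by ATF4. Its difference was the largest of the 15 in the β comparison. ChREBPβ-deficient mice read 11.34, 11.68, 11.68, 11.45, 11.80, 11.63, 10.69 and 10.94, and their WT littermates 11.51, 10.75, 11.36, 10.78, 10.47, 10.55, 10.81 and 10.69. The groups overlapped, with 4 of 8 ChREBPβ-deficient mice above all WT littermates. The log2 difference was 0.54 (SE 0.19, 95% interval 0.15 to 0.92), with an exact permutation p of 0.0157 for this probe alone and a limma adjusted p of 0.97 over all probes. At an unadjusted p below 0.05, 2 of 15 members passed here (Trib3 and a Foxo1 probe), beside 4.98% of all probes. In total ChREBP-KO mice the difference was 0.39 (SE 0.20, 95% interval -0.01 to 0.79, limma adjusted p = 0.143), at 0.02 and 0.78 within the 2 scan dates. The 2 effects differed by -0.15 (95% interval -0.70 to 0.41).

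Lists of other genes of the pathway gave the setting for these members, and the plot of related lists shows their calls in total ChREBP-KO mice. A gene counts as called there if any of its probes was, which holds for 17.3% of all gene names as higher and 17.1% as lower. Genes with more probes have more chances of a call. The number of probes per gene differed between the lists and all gene names, and the shares were not adjusted for it. The β deletion gave 0 called genes in any of the 7 lists, beside 0.00417% of all gene names. All counts of lists are descriptions, and the lists were chosen with earlier results of these data known.

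In total ChREBP-KO mice the growth hormone and IGF list had 7 higher and 2 lower genes of 14. Igfals, which encodes the subunit that holds IGF1 in its ternary serum complex, was higher by 0.64 (SE 0.14, limma adjusted p = 0.000935), and Igfbp3, the binding protein of that complex, by 0.53 (SE 0.14, limma adjusted p = 0.00382). The growth hormone receptor gene Ghr rose by 0.45 on the probe with the highest mean (SE 0.10, limma adjusted p = 0.000494), while 2 of its 4 probes were not called. Stat5b, the factor through which growth hormone drives Igf1, fell by 0.45 (SE 0.08).

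The list of fasting and feeding output genes had 3 higher and 7 lower genes of 14. G6pc, the last enzyme of hepatic glucose output, ran from 9.11 to 13.60 in total ChREBP-KO mice and from 14.12 to 16.30 in their WT littermates, without overlap, at a log2 difference of -4.79 (SE 0.50). Fbp1, of gluconeogenesis, fell by 1.42 (SE 0.09), and Srebf1, which insulin induces for lipid synthesis, fell by 0.91 (SE 0.14). Pck1, which glucagon induces, gave 0.98 (SE 0.43, limma adjusted p = 0.0887) and overlapped between the groups, from 14.85 to 16.69 against 12.75 to 16.02.

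Insulin receptor signalling had 9 higher and 6 lower genes of 36. Of these, 1 gene counts on both sides, called in opposite directions by different probes. Igf1r, the IGF1 receptor, rose by 0.24 (SE 0.06), Foxo3 by 0.58 (SE 0.12) and Trib1, a relative of Trib3, by 0.81 (SE 0.14). Glucagon and cAMP signalling had 5 higher and 5 lower genes of 26, with the CREB coactivator Crtc2 higher by 0.54 (SE 0.10) and the cAMP-responsive Nr4a2, which fell by 0.63 (SE 0.15). Partners of PGC-1 had 1 higher and 3 lower of 10, with Ppara higher by 0.69 (SE 0.15) and Lpin1, which fell by 3.25 (SE 0.20).

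The list of ATF4 and the integrated stress response, in which Trib3 was not counted, had 8 higher and 2 lower genes of 19. Ddit3, a stress-induced factor, rose by 1.89 (SE 0.23) and Asns, asparagine synthetase, by 1.51 (SE 0.50), while Atf4 itself gave 0.15 (SE 0.12, limma adjusted p = 0.385). The circadian list had 8 higher and 5 lower genes of 17, with Dbp higher by 3.19 (SE 0.99, limma adjusted p = 0.0143) and Arntl, which fell by 1.38 (SE 0.47, limma adjusted p = 0.0251).

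**Figure D5:**
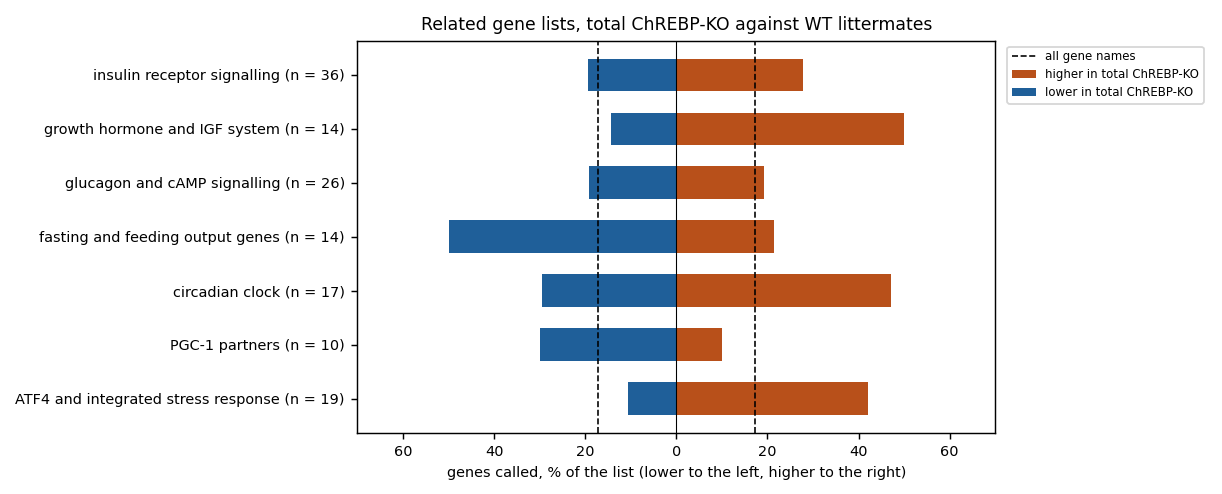
Share of genes called higher (to the right) or lower (to the left) in total ChREBP-KO mice than in WT littermates, as a percentage of each list (x axis), for 7 related lists (rows, with the number of genes). Dashed lines mark 17.3% and 17.1%, the shares of all gene names. In insulin receptor signalling, 1 gene called in both directions was added a further time on each side. The bars of that list are thus longer than the shares from its 9 higher and 6 lower genes of 36.

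Between the WT littermates, 9.93% of gene names were higher and 11.4% lower in the total line. Insulin receptor signalling had 7 higher and 4 lower genes of 36, with 1 gene counted on both sides. Glucagon and cAMP signalling had 3 and 4 of 26, and the growth hormone and IGF list 2 and 1 of 14. The fasting and feeding list had 1 and 3 of 14. Partners of PGC-1 had 3 higher and 2 lower of 10, with a median difference of 0.098 over the probes of the list. Ppara, 1 of the lower genes, fell by 0.69 (SE 0.15, limma adjusted p = 0.00142). Its rise in total ChREBP-KO mice was measured against the same WT mice of the total line. G6pc was at 1.19 (SE 0.48, limma adjusted p = 0.0847) and Pck1 at -0.68 (SE 0.42, limma adjusted p = 0.276), so neither followed Igfbp1 past its spread.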

How the data were processed

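Per the labels, liver total RNA was labelled with Cy3 and hybridized on SurePrint G3 Mouse GE v2 arrays read with Agilent Feature Extraction 10.10.1.1. The authors deposited scanner files, whose median signal is an intensity, and a table of log2 values that they had filtered and quantile normalized with limma. The deposited log2 values differed from those used here by -0.027 to 0.030 between the 1st and 99th percentiles.

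The median signal was log2 transformed, probes with spot weight 1 on at least 26 arrays or on 6 arrays of 1 group were kept, arrays were quantile normalized, and spots of 1 probe name were summarized by their median. A limma 3.58.1 model (R 4.3.3) with 4 group means gave the contrasts, adjusted over all 36059 probes, and single probes were also tested by exact permutation. It was checked on simulated data. In 6 spots of members, 4 of them on the Irs2 probe, the scanner had not found the spot outline, and they were kept. Arrays lay on 15 slides and 2 scan dates, each date with all 4 groups. Every member and probe is named, and the probe with the highest mean stands for its gene. Genes of related lists are named where called or defining. The 3 closest gene names by Pearson's r were found per probe, and only some of them are given. Bcl6, Nfil3 and Socs3 were chosen after their values were seen. The members and lists were chosen with earlier results of these data known. Figures were drawn with matplotlib 3.10.9. Alternatives covered scaling, background correction, filters, blocks, tests and single arrays. The settings without arrays rich in pancreatic or adipocyte markers and with spots of weight 0 set to missing, were added after seeing the data. Probe positions are on mm9 as in the scanner files. Exons and UTRs were not assigned, and no gene annotation of that build was used here. Values of some genes of the related lists are not reported here.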

Additional observations from a re-analysis of the deposited data

Results flagged for a closer look

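A single mouse stood apart from its group in Igfbp1. WT replicate 6 of the total line read 13.85, while the other 7 mice of that group read 15.07 or more, a gap that passes Dixon's test at the 95% level. It was 1 of 60 tests of a probe in a group, and chance alone passes about 1 in 20. Without that mouse the Igfbp1 difference between the WT littermates was 2.19 on the log2 scale.

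The effect on Gcgr differed between the lines by -0.36 on the log2 scale (total line minus β line, limma adjusted p = 0.00175). In the total line, 6 of 7 total ChREBP-KO mice lay below every WT littermate, and in the β line 0 of 8 ChREBPβ-deficient mice did.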

How the results depend on the processing

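The calls for Igf1 A_51_P147942 (0.26 to 0.37) and Gcgr (-0.32 to -0.23) in the total line held in 16 of 16 other settings that test each probe without a fold threshold. They also held without each of 31 arrays in turn (0.27 to 0.34 and -0.31 to -0.25). Both were lost with a fold of at least 1.5 also required. With the mean of a gene's probes Igf1 was at -0.04 (limma adjusted p = 0.93) and was lost, while Gcgr was still called. A call for Irs2 between the WT littermates was lost only with the slide as a fixed block, which took the calls over all probes in that comparison from 17.0% to 5.82%. The settings without arrays high in pancreatic or adipocyte markers were chosen after seeing the data.

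For the difference of the effects, 1 member probe was higher in place of 0 with either scaling, normexp, weight 1 on all arrays, deposited values, a trended robust fit, the slide as a fixed block or without the adipocyte-marker arrays, and 2 were without the pancreatic-marker arrays. Between the WT littermates, 0 probes were higher with the slide block or without the pancreatic-marker arrays, and 1 was lower by the exact Mann-Whitney test. With a fold of at least 1.5 also required, 0 were higher and 0 lower in the total line, 0 lower in the difference of effects and 1 lower between the WT littermates. With the mean of a gene's probes, 0 genes were higher in the total line. Without single arrays, the probes called numbered 0 to 2 higher in the difference of effects, and between the WT littermates 1 to 2 higher and 2 to 3 lower.

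Same-numbered deviations correlated at -0.16 to 0.53 in the β line, with 6 of 8 pairs over 0.1, and at -0.21 to 0.24 in the total line, with 2 of 7 over 0.1. The numbers were not taken as pairs, which required every pair to exceed 0.1. With the replicate block, 1 probe was higher in the difference of effects (Foxo1 A_52_P453884, 0.24, limma adjusted p = 0.0252), and for the total deletion Ppargc1a A_51_P279038 was -0.0095 and Ppargc1a A_55_P2745394 was -0.034. No other member call changed with it in the comparisons it could fit.

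Only differences that were not called changed sign, 89 times over all settings and single arrays. With 75th-percentile scaling, for the β deletion Igf1 A_51_P147942 was -0.0013 and Igfbp1 A_51_P447545 was -0.015, for the total deletion Foxo1 A_55_P2798990 was -0.012 and for the WT littermates Igfbp2 A_55_P2056729 was 0.0012. With the processed signal scaled likewise, for the β deletion Igf1 A_51_P147942 was -0.0065 and Igfbp1 A_51_P447545 was -0.019 and for the WT littermates Igfbp2 A_55_P2056729 was 0.0024. In the deposited values, for the WT littermates Igfbp2 A_55_P2056729 was 0.010. With the slide as a fixed block, for the β deletion Irs1 A_52_P175242 was 0.047, Irs2 A_66_P102260 was 0.057, Igf1 A_52_P306327 was -0.12, Ppargc1a A_51_P279038 was -0.087 and Ppargc1a A_55_P2745394 was -0.083, for the total deletion Ppargc1a A_51_P279038 was -0.099 and Ppargc1a A_55_P2745394 was -0.13, for the difference of effects Insr A_55_P2173927 was 0.027 and Igf1 A_55_P2085979 was 0.032 and for the WT littermates Igf1 A_51_P147942 was 0.0076 and Igfbp2 A_55_P2056729 was 0.019. Without the arrays high in pancreatic markers, for the total deletion Igf1 A_55_P2085979 was -0.069, for the difference of effects Ppargc1a A_51_P279038 was 0.055 and Ppargc1a A_55_P2745394 was 0.073 and for the WT littermates Igf1 A_55_P2085979 was 0.13 and Gcgr A_55_P2056995 was -0.0040. Without the arrays high in adipocyte markers, for the total deletion Igf1 A_55_P2085979 was -0.18, for the difference of effects Irs2 A_66_P102260 was 0.0056 and Ppargc1a A_51_P279038 was 0.022 and for the WT littermates Igf1 A_55_P2085979 was 0.070 and Igfbp2 A_55_P2056729 was 0.013. Without single arrays the ranges were for the β deletion Irs1 A_52_P175242 from -0.076 to 0.035, Igfbp1 A_51_P447545 from -0.32 to 0.25 and Igf1 A_52_P306327 from -0.025 to 0.68, for the difference of effects Igf1 A_55_P2085979 from -0.28 to 0.097, Ppargc1a A_51_P279038 from -0.13 to 0.037 and Ppargc1a A_55_P2745394 from -0.15 to 0.021, for the WT littermates Igfbp2 A_55_P2056729 from -0.077 to 0.085 and Igf1 A_55_P2085979 from -0.17 to 0.16 and for the total deletion Ppargc1a A_55_P2745394 from -0.060 to 0.11, Ppargc1a A_51_P279038 from -0.048 to 0.12, Igf1 A_55_P2085979 from -0.053 to 0.23, Foxo1 A_55_P2798990 from -0.032 to 0.071 and Insr A_55_P2173927 from -0.0026 to 0.052. The cause was not tested.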
